A study of Mus musculus with 8 samples.

Results

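Regions of open chromatin that serve an end of 2 or more protein-coding genes at once numbered 1953 of the 138385 regions found in leukemic progenitors of MLL-AF9 mice, or 1.41%. They were chosen by position alone. Peak lists of 8 ATAC-seq libraries were merged wherever peaks shared at least 1 bp, and a region entered when its strongest summit lay within 1 kb of an end (first or last base) of at least 2 different genes in the mm10 assembly. The strongest summit is that of the peak with the highest percentile of −log10 q within its own list. Another 14558 regions lay at an end of 1 gene and 121874 at none. The 1953 regions touched 3541 of 21631 protein-coding genes, and 1918 of them involved 2 genes, 34 involved 3 and 1 involved 24 (the gamma protocadherin cluster, whose genes share their last exons).

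ATAC-seq reads open chromatin by letting a transposase insert sequencing adapters where DNA is exposed. The cells were L-GMPs, granulocyte-macrophage progenitor-like leukemia cells, sorted from bone marrow as Lin-, Sca-1-, c-Kit+, CD16/32+ and CD34+. All groups carried the MLL-AF9 fusion leukemia. FL 1 and FL 2 were Dek fl/fl controls, and KO 1 and KO 2 were Dek fl/fl with MX1-Cre, which is driven by an interferon-responsive promoter. FL 3 was Dek+/+, KO 3 was Dek fl/fl with Tie2-Cre, which is driven by a promoter active in endothelial and blood-forming cells, and 4S-A 1 and 4S-A 2 were Dek-Ser306A/Ser308A/Ser311A/Ser312A, with alanine in place of these serines of DEK. DEK is an abundant nuclear protein that binds chromatin. Replicates were not stated to come from separate animals, so p-values measure the spread between these libraries, which may be technical. FL 1, FL 2, KO 1 and KO 2 are called the Mx1-Cre set here, and FL 3, KO 3, 4S-A 1 and 4S-A 2 the Tie2-Cre set. Each set is named after the Cre of its KO libraries, which does not mean that its FL or 4S-A libraries carried that Cre. Because FL 3 has another Dek genotype than FL 1 and FL 2, the Cre set and the control genotype cannot be told apart.

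Lists held 51510 to 56245 peaks in FL 1, FL 2 and KO 1, 74026 in KO 2, and 91586 to 104605 in the 4 lists of the Tie2-Cre set. Read depth is unknown and list length stands in for it. Regions at the ends of Kit, Cd34, Fcgr2b, Mpo, Elane, Cebpa and Spi1, genes of the sort gate and of myeloid progenitors, were in all 8 lists, and that of Fcgr3 in 7. None was found at Ly6a (the gene of Sca-1), Ms4a1 (B cells) or Gata1 (erythroid). Among genes of other cell types, the best gene end region of Cd3e (T cells) was in 1 list, Ly6g (neutrophils) in 4, and Pecam1 and Tek (endothelium) in 3 and 2. Those of Itga2b (megakaryocytes), Cdh5 (endothelium) and Cxcl12 and Col1a1 (stroma) were in 6 or 7, and their part in the results was not tested. No region had its strongest summit within 1 kb of an end of Dek, so these lists do not check the knockout there.

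When neighbouring genes are transcribed away from each other on opposite strands and their starts lie close together, the stretch between the starts is called a bidirectional promoter. Such head-to-head pairs are common among housekeeping genes, above all those for DNA repair and mitochondria, and their promoters tend to be rich in CpG and poor in TATA boxes. A nucleosome-poor stretch between the starts can serve both genes, and ATAC-seq cannot say which gene it serves. Of the 1953 regions, 877 (44.9%) lay at opposite-strand starts and are called divergent here. A further 23 lay at starts on the same strand, 357 at a start and an end, 152 at 2 ends and 21 at more than 2 genes. Strand was not known for all genes of the other 523 (26.8%), because the RefSeq promoter table that gave it covered 82.2% of the genes.

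The sequence between the starts is given here for a few divergent pairs. Only pairs with a short gap between the starts were taken, so these lengths do not describe divergent pairs in general. Pairs with overlapping genes, such as Hspe1/Hspd1, or a wide gap, such as Gart/Son (851 bp), were left out. Pairs were taken from textbook examples, from the 12 strongest regions and, last, from the pair whose rank varied most. Sequences were read 5′ to 3′ from RefSeq promoter windows of GRCm38.p6 (mm10). Capitals mark a match on either strand to 1 of 7 motifs. The SP/KLF motif was searched as GGGCGG. For ETS factors the letters were CCGGAAG. The NFY box was read as CCAAT, and the cyclic AMP response element (CRE) as TGACGTCA. A TATA box meant the letters TATAAA. The longer NRF1 and YY1 motifs are given by name. Brca1/Nbr1 (151 bp, 1 NFY match) and Wrap53/Trp53 (97 bp, no match) also had short gaps, and their sequences are not shown. The stronger region at Wrap53/Trp53 did not reach the stretch between its starts.
Psmb9/Tap1, mm10 chr17:34187331-34187555, plus strand: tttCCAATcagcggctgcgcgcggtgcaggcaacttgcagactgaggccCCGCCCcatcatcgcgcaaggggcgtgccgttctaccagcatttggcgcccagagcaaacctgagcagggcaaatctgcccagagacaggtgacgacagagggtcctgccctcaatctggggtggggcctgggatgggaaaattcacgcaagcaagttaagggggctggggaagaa
Mrps12/Sars2, mm10 chr7:28741822-28741956, plus strand: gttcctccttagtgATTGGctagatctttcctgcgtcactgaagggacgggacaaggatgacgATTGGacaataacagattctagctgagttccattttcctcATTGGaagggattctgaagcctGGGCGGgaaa
Sirt3/Psmd13, mm10 chr7:140882310-140882393, plus strand: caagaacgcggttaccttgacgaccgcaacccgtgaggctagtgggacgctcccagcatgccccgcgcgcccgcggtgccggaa
Erp44/Invs, mm10 chr4:48279636-48279706, plus strand: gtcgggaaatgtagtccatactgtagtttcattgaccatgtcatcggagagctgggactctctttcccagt
Ormdl2/Sarnp, mm10 chr10:128821630-128821763, plus strand: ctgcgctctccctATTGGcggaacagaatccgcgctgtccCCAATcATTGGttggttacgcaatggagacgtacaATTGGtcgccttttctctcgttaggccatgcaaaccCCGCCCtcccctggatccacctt
Npc2/Isca2, mm10 chr12:84773113-84773229, plus strand: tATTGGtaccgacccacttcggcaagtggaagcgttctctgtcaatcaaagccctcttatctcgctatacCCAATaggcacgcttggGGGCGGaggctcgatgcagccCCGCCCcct
Rpa3/Umad1, mm10 chr6:8259142-8259287, plus strand: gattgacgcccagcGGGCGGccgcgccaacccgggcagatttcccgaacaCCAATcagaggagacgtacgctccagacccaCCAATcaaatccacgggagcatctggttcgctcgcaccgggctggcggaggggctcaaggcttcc
Tcf19/Cchcr1, mm10 chr17:35516838-35517048, plus strand: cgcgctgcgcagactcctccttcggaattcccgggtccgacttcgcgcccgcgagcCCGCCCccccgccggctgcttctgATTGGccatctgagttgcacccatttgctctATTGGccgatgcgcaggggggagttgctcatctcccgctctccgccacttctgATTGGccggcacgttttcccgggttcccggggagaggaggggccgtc

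The stretches were 71 bases long at Erp44/Invs and 225 at Psmb9/Tap1, and no stretch shown held the TATA motif. The NFY motif occurred 4 times at Ormdl2/Sarnp, 3 times at Mrps12/Sars2 and at Tcf19/Cchcr1, and not at all at Erp44/Invs. For comparison, 39.6% of all 17274 RefSeq promoter windows of 300 bases held this motif. In the Erp44/Invs stretch, 47.9% of bases were G or C, against 69.0% at Sirt3/Psmd13. Sirt3 encodes a mitochondrial deacetylase and Psmd13 a subunit of the proteasome.

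Across all divergent regions the starts were close. Of the 877, 563 had a gap between the starts, with a median of 97 bp (quartiles 44.5 and 216), and in the other 314 the genes overlapped. The open region covered both starts in 760 (86.7%), and its strongest summit fell between them in 394 (44.9%). That summit lay a median of 46 bp from the nearer start and 167 bp from the farther one. By the gap between the starts, the median strength (the mean percentile of −log10 q over the libraries with a peak) was 90.6 where genes overlapped, 92.1 at 0 to under 100 bp, 94.7 up to 250 bp, 95.1 up to 500 bp and 89.8 up to 1000 bp. These groups held 314, 288, 156, 78 and 38 regions, and 3 more with wider gaps had a median of 57.9. The share in all 8 lists was 97.4% (95% exact interval 91.0 to 99.7) at 250 to 500 bp and 86.8% (71.9 to 95.6) at 500 to 1000 bp, and these intervals overlap.

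Regions at paired gene ends ranked higher within every list than regions at 1 gene end. Their median percentile of −log10 q was 88.7 in FL 1, 89.0 in FL 2, 91.8 in FL 3, 89.3 in KO 1, 90.8 in KO 2, 91.8 in KO 3, 92.1 in 4S-A 1 and 91.6 in 4S-A 2. At 1 gene end the medians ran from 79.8 (FL 1) to 82.1 (KO 3), so the libraries of the paired and the single class did not overlap. The difference averaged 9.51 ± 0.60 percentile points (SD, n = 8 libraries) and was positive in 8 of 8 (exact two-sided sign-flip permutation test, p = 0.0078, adjusted p = 0.0078 over 3 measures, the smallest that 8 libraries can give). All libraries read the same regions, so this test speaks of libraries and not of regions.

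Peaks there were also wider. Median peak width was 576.5, 599 and 1046 bp in FL 1 to 3, 639, 694 and 1036 bp in KO 1 to 3, and 1015 and 1000 bp in 4S-A 1 and 2. At 1 gene end it was 487, 502 and 830 bp, then 523, 563 and 826.5 bp, then 818 and 807 bp. Within a library the ratio of the medians was 1.18 to 1.26, and the log2 difference averaged 0.30 ± 0.03 (SD, n = 8; exact sign-flip permutation test, p = 0.0078, adjusted p = 0.0078). Differences between libraries were larger still: the 4 lists of the Tie2-Cre set, which are the longest, had medians of at least 1000 bp and the 4 of the Mx1-Cre set of at most 694 bp. At equal strength, paired regions were not always wider over all lists. In the strongest decile of all regions the median union width was 1269.5 bp, against 1173 bp at 1 gene end. In the ninth decile it was 1073 against 946 bp, in the eighth 655 against 723 bp and in the seventh 586.5 against 602 bp.

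More of them were present in each list. Of the 1953, FL 1, FL 2 and FL 3 held 82.8%, 83.5% and 92.1%, KO 1, KO 2 and KO 3 held 82.5%, 87.7% and 92.6%, and 4S-A 1 and 4S-A 2 held 93.4% and 92.1%. At 1 gene end the shares were 66.2%, 68.5% and 81.4%, then 67.2%, 74.6% and 81.9%, then 85.1% and 81.6%. The difference averaged 12.6 ± 2.92 percentage points (SD, n = 8) and ran from 8.37 in the longest list to 16.7 in the shortest (exact sign-flip permutation test, p = 0.0078, adjusted p = 0.0078).

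**Figure D1:**
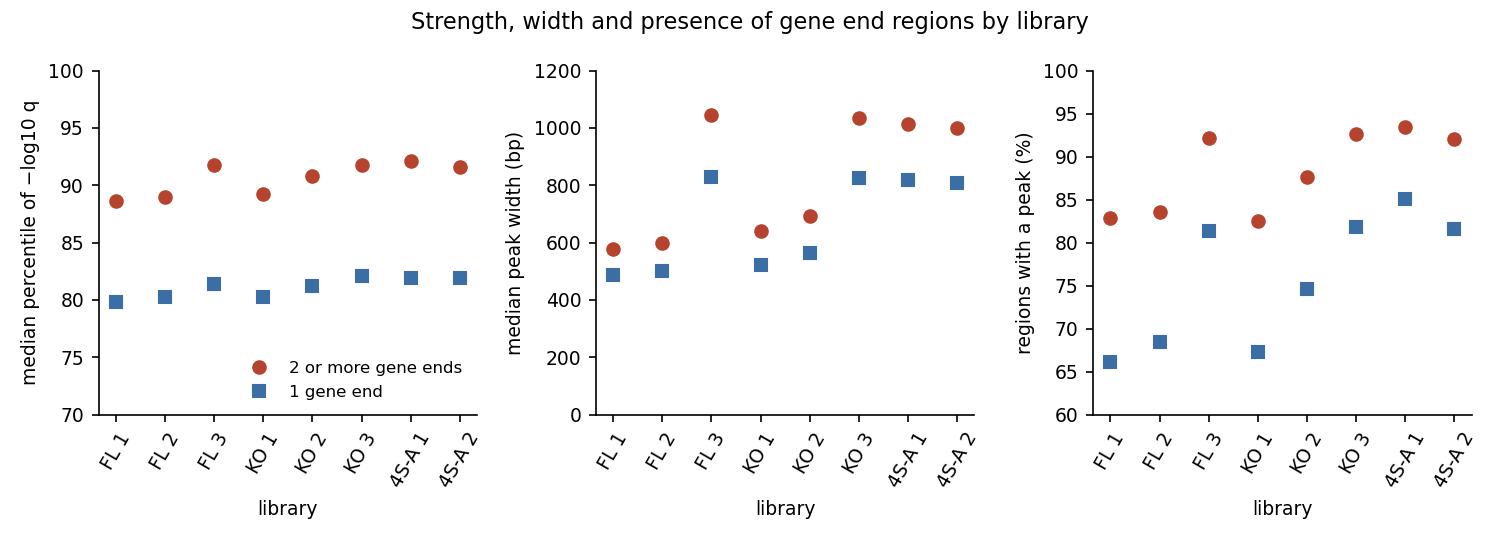
Median percentile of −log10 q (left), median peak width in bp (middle) and percent of regions with a peak (right) in each of the 8 libraries, for regions at 2 or more gene ends (circles, 1953 regions) and at 1 gene end (squares, 14558 regions). Circles lie above squares in every library and panel, and the 4 Tie2-Cre set libraries (FL 3, KO 3, 4S-A 1 and 4S-A 2) have the widest peaks. The percentile axis starts at 70 and the percent axis at 60.

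The single class mixes gene starts with gene ends, so divergent regions were also set against the 9088 regions at 1 gene start, a comparison added after the data were seen. Divergent regions still ranked higher by 7.27 ± 0.26 percentile points, had peaks wider by 0.32 ± 0.02 on the log2 scale and were held more often by 13.4 ± 3.69 percentage points (SD, n = 8, positive in 8 of 8; exact sign-flip permutation tests, p = 0.0078 each, adjusted p = 0.0078). Orientation moved the values more than the number of genes did. Median strength was 92.2 in divergent regions, 82.6 where a start met an end, 78.4 at 1 start, 37.3 at 2 ends and 31.6 at 1 end. Regions at ends with no start were also narrow, with a median union width of 432 bp against 1262 bp for divergent regions.

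**Figure D2:**
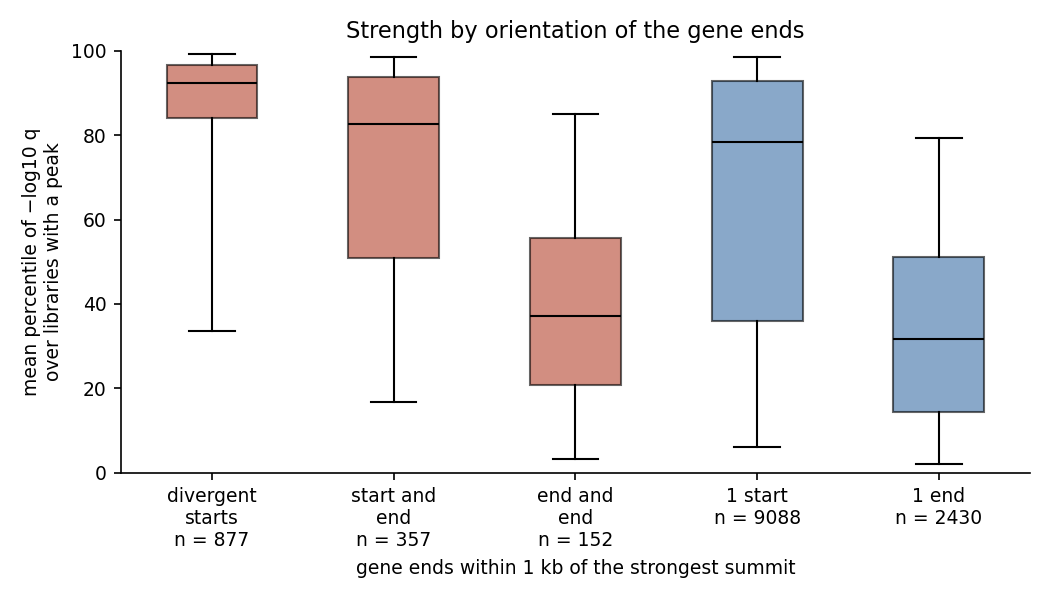
Mean percentile of −log10 q over the libraries with a peak, by the gene ends within 1 kb of the strongest summit. Boxes span the quartiles, lines mark medians and whiskers the 5th and 95th percentiles over regions. Divergent starts (877 regions, median 92.2) lie highest, and regions with ends and no start (152 and 2430 regions, medians 37.3 and 31.6) lie lowest.

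Regions that include a gene start were also the more stable ones. All 8 lists held 1530 of the 1953 regions, or 78.3% (95% exact interval 76.4 to 80.1), against 58.1% (57.3 to 58.9) at 1 gene end and 19.1% away from gene ends. Among divergent regions the share was 92.0% (90.02 to 93.7), where a start met an end 75.4% (70.5 to 79.7), and at 2 ends 24.3% (17.8 to 32.0). At 1 start it was 68.7% and at 1 end 21.7%. Where all 8 lists held a region, its percentile ranged over a median of 7.06 points in divergent regions, 11.1 at 1 start and 32.6 away from gene ends, but ranks near the top have little room to range and list lengths differ. In the strongest decile the medians were 6.27, 7.41 and 14.2, and in the ninth, where 68 divergent regions fell, they were 31.7, 28.4 and 33.4, so divergent regions did not range less there. Intervals over regions cover counting error only.

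At equal strength, ranked by −log10 q, the difference in stability was small. When regions at 1 gene end were weighted to the strength deciles of the paired regions, 78.5% of them were in all 8 lists, against 78.3%, a difference of −0.13 percentage points. For divergent regions against regions at 1 start, the difference was 0.56 points. Strength was here the mean percentile. By the highest percentile in any list the differences were 0.72 and 1.18 points. Ranked by fold enrichment instead of −log10 q, however, the paired minus single difference was 5.70 points, so its size rests on how strength is ranked. Of the paired regions, 1250 (64.0%) belonged to the strongest decile of all regions, and all 8 lists held each of the 1250, as they did 99.8% of the 5689 regions at 1 gene end in that decile. In the ninth decile 95.5% of 202 paired regions (91.7 to 97.9) and 90.8% of 1709 single ones (89.3 to 92.1) were in all 8 lists. The order was the reverse in the eighth decile, with 48.3% of 89 paired regions (37.6 to 59.2) and 58.3% of 1111 single ones (55.4 to 61.2). Among the 469 regions with a mean percentile of at least 99, 102 (21.7%) lay at paired gene ends and 71 of these were divergent.

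**Figure D3:**
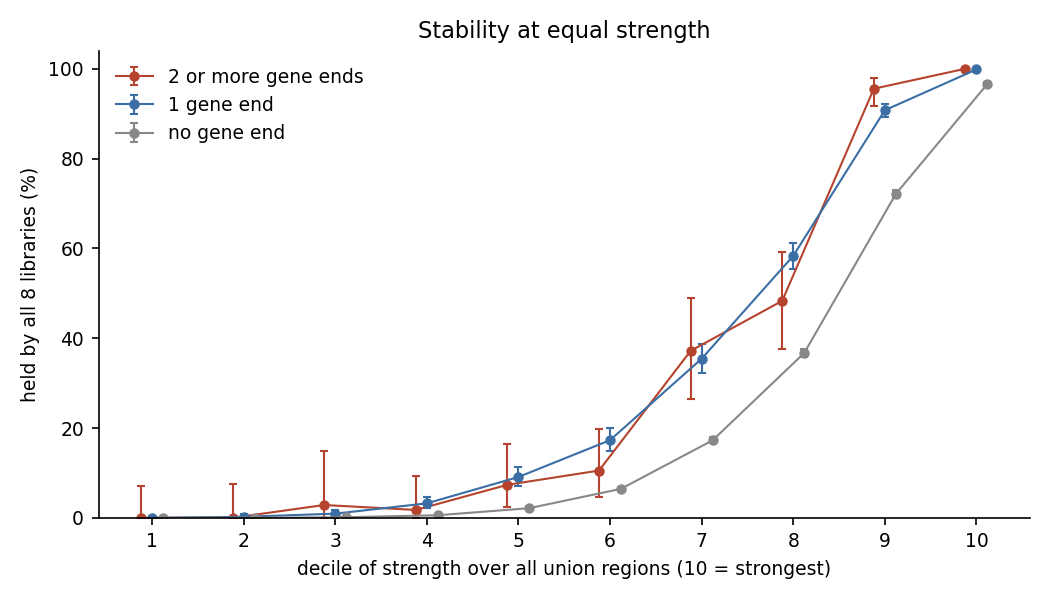
Percent of regions held by all 8 libraries in each decile of strength over all union regions, for regions at 2 or more gene ends, at 1 gene end and at none, with 95% exact intervals. The curves for 2 or more and for 1 gene end run close together and reach 100% and 99.8% in decile 10, above the 96.6% of regions at no gene end.

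The rule has an edge at 1 kb. The 139 paired regions whose farther gene end lay over 900 bp away had a median strength of 51.0 and 47.5% were in all 8 lists. Just outside, 136 regions with the farther end over 1000 and up to 1100 bp away had a median of 52.1 and 52.9% were in all 8.

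The same was read from the genes instead of the regions, again after the data were seen. Of 1795 gene starts with an opposite-strand start within 1 kb, 91.1% (89.7 to 92.4) had a summit within 1 kb in all 8 lists. With another kind of gene end nearby it was 59.8% of 873, and with no other gene end nearby 42.1% of 14606. Starts with a divergent partner come in pairs that often share a region, so their interval is too narrow. By library, 92.2% (KO 1) to 94.1% (4S-A 1) of starts with a divergent partner were open, against 47.1% (KO 1) to 52.8% (4S-A 1) of lone starts. The difference averaged 43.4 ± 1.56 percentage points (SD, n = 8, positive in 8 of 8; exact sign-flip permutation test, p = 0.0078).

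**Figure D4:**
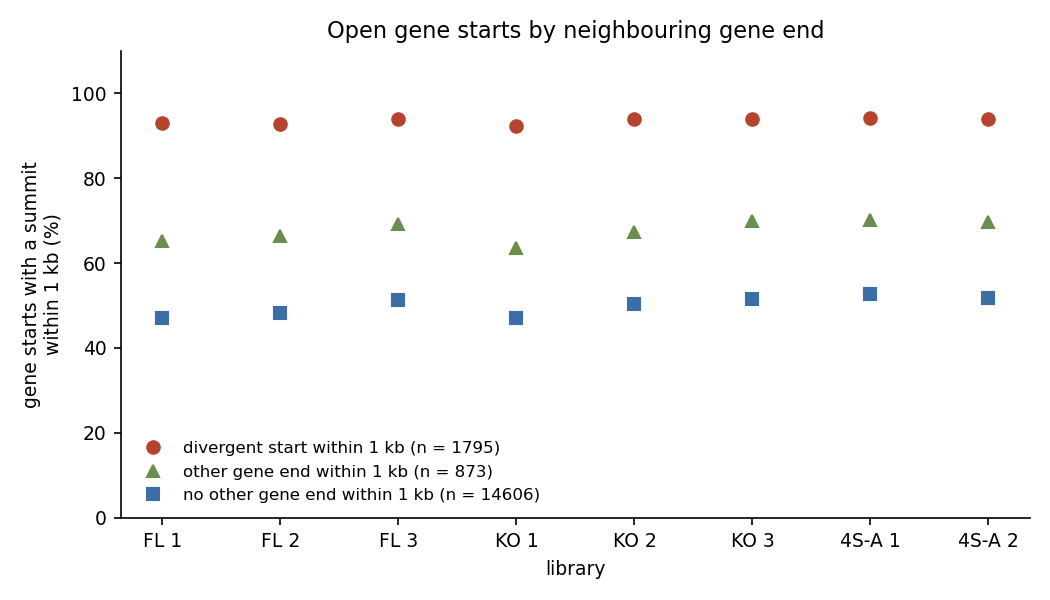
Percent of gene starts with a peak summit within 1 kb in each of the 8 libraries, for starts with a divergent start within 1 kb (1795), with another gene end within 1 kb (873) and with no other gene end there (14606). The first class stays between 92.2% and 94.1% in every library and the last between 47.1% and 52.8%.

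The 12 strongest paired regions had mean percentiles of 99.6 to 99.8 and were in every list. Rpgrip1l/Fto, at chr8:91312928-91313897, led them with 99.7, 99.8 and 99.9 in FL 1 to 3, 99.8, 99.9 and 99.8 in KO 1 to 3, and 99.7 and 99.95 in 4S-A 1 and 2. Rpgrip1l encodes a protein of the ciliary transition zone and Fto an RNA demethylase, and their starts are 75 bp apart. The next were Bag1/Chmp5 (a co-chaperone of heat shock proteins and a membrane-sorting protein), Ppme1/C2cd3, Card6/Rpl37, Hormad1/Golph3l, Jpt2/Cramp1l, Erp44/Invs (a chaperone of the endoplasmic reticulum and the cilium protein inversin), Ro60/Uchl5, Azi2/Zcwpw2, Ormdl2/Sarnp, Npc2/Isca2 (a cholesterol carrier and an iron-sulfur assembly factor) and Rpa3/Umad1. Rpa3 is a subunit of the single-stranded DNA binding complex. Of the 12, 9 were divergent, Hormad1/Golph3l and Jpt2/Cramp1l paired a start with an end, and the strand of Card6 was not known. The widest regions were at Arid2, a chromatin remodelling subunit paired with a predicted gene (2836 bp over all lists, mean percentile 84.8), and Atp6v0d1/Agrp (2799 bp, 88.1). Tsen34/Mboat7 (2757 bp, 94.1) and Hnrnpa2b1/Cbx3 (2585 bp, 91.6) followed, so width and rank did not share their leaders. Among regions at 3 genes, Nup62/Il4i1b/Atf5 had a mean percentile of 98.0 and Cmc4/Mtcp1/Brcc3 of 97.8, both in all 8 lists, while the region at 24 protocadherin genes was held by FL 3 and the 4S-A libraries alone, at 1.6, 18.96 and 1.2.

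Textbook head-to-head pairs behaved in the same way. Of 18 such pairs, 17 met in a paired region. Wrap53/Trp53 met in 2 and is counted by the stronger, and 15 of the 17 regions were in all 8 lists. Hspe1/Hspd1, the mitochondrial chaperonins, had 98.9, 98.99 and 98.3 in FL, 96.2, 97.9 and 96.0 in KO and 98.2 and 97.7 in 4S-A. Atm/Npat, the DNA damage kinase and a histone gene coactivator, stayed between 98.4 and 99.4. Brca1/Nbr1 (homologous recombination and autophagy) stayed between 96.9 and 98.8, Paics/Ppat (purine synthesis) between 96.0 and 98.5, and Mcm4/Prkdc (the replicative helicase and a DNA repair kinase) between 98.0 and 99.4.

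Other textbook pairs were lower or less even. Psmb9/Tap1, which serve antigen presentation as an immunoproteasome subunit and a peptide transporter, had 80.4, 86.1 and 96.4 in FL 1 to 3, 89.6, 89.7 and 93.0 in KO 1 to 3, and 95.7 and 93.7 in 4S-A, and the FL and KO values overlap. Afmid/Tk1 (Tk1 is thymidine kinase) was in 7 lists at 47.9 to 70.4 and missing from KO 1. Col4a2/Col4a1, which encode the collagen IV of basement membranes, was in 4 lists, at 16.2 in FL 3, 7.7 in KO 1, 21.2 in KO 2 and 2.8 in KO 3. Of the 18, Tbp/Psmb1 did not share a region: each gene had a region of its own.

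Paired ends were common in some gene groups and rare in others. Of all protein-coding genes, 16.4% had an end at a paired region. The share was 48.6% of 74 DNA repair genes (36), 48.7% of 78 mitochondrial ribosomal protein genes (38), 43.8% of 96 respiratory chain genes (42), 40.5% of 37 aminoacyl-tRNA synthetase genes (15) and 34.0% of 47 DNA replication genes (16). Examples were Pinlyp/Xrcc1 (base excision repair, mean percentile 99.5), Ptcd2/Mrps27 (mitochondrial ribosome, 99.1), Mrpl47/Ndufb5 (mitochondrial ribosome and complex I, 98.5), S100pbp/Yars (tyrosyl-tRNA synthetase, 98.0) and Pcna/Cds2 (the sliding clamp of replication, 98.99). Nearly all of these regions were stable. In all 8 lists were 34 of 36 in DNA repair, 35 of 37 in the mitochondrial ribosome and 41 of 42 in the respiratory chain. The share was 78.3% of all paired regions and 92.0% of all divergent ones. Known to be divergent were 21, 26 and 26 of the regions in these groups, so such stability is not particular to them.

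Histone genes, which lie in clusters, had 42 of 84 at paired regions, but at just 23 regions, of which 7 were known to be divergent. H2ac21/H2ac20/H2bc21, with 3 genes, had a mean percentile of 90.3. Proteasome genes stood at 25.6% (10 of 39), interferon response genes at 28.9% (11 of 38) and cytosolic ribosomal protein genes at 22.6% (19 of 84). In these groups 10.3%, 10.5% and 5.95% of genes had no region at either end, against 34.5% of all genes. Paired shares among genes with a region were not computed. Of the 9 interferon response regions 5 were in all 8 lists, among them Stat2/Apof (98.5) and Rnf31/Irf9 (92.7), transcription factors of the interferon pathway and their neighbours. Zinc finger genes of the Zfp series stood at 9.90% (39 of 394).

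Genes that define the cells were seldom paired. Of 30 myeloid identity genes 2 were at a paired region, Csf1r/Hmgxb3 (the macrophage colony-stimulating factor receptor, mean percentile 90.3) and Cd68/Eif4a1 (a macrophage marker and a translation initiation factor, 89.6), and 25 lay at a region of their own. Of 30 stem and progenitor genes, Etv6 (with a predicted gene) and Commd3/Bmi1 were paired. Bmi1, a Polycomb protein of stem cell self-renewal, had 53.1 to 70.7 over the 8 lists. Of 1467 olfactory and vomeronasal receptor genes 1 was paired, Vmn1r4/Nt5c3 (98.5), and of 109 keratin genes 0, which allows a share of up to 2.75%. Lists were compiled with earlier results of these data known, and the shares are descriptions.

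Promoter windows of divergent pairs held more CpG and more ETS motifs than those at 1 start. Windows of 300 bases were at hand for 1541 of 1672 genes at divergent regions (92.2%). Their median GC content was 63.0%, against 61.0% at 1 start and 47.3% at genes with no open region at either end, and the CpG ratio, observed over expected, was 0.85, 0.75 and 0.21. The ETS motif CCGGAAG was in 28.9% of divergent windows, 15.3% of windows at 1 start, 3.91% of those with no open region and 12.1% of all. The YY1 motif was in 3.96%, 1.75%, 0.168% and 1.27%, in the same order, and GGGCGG (SP/KLF) in 69.3%, 65.2%, 18.9% and 46.9%. TATAAA was rarer, in 4.54%, 7.67%, 24.1% and 13.4%. CCAAT differed little, at 40.6%, 38.4%, 41.5% and 39.6%.

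Among divergent windows the ETS motif was in 30.3% of the 1451 windows at regions in all 8 lists and in 7.78% of the 90 at regions in fewer, a difference that other features partly shared: the CpG ratio was 0.86 and 0.70, the YY1 motif was in 4.14% and 1.11% and CCAAT in 41.1% and 32.2%. GC content was 63.0% and 62.3%, and GGGCGG was in 69.2% and 71.1%. The NRF1 motif went the other way, at 2.34% and 4.44%, and the CRE was in 4.07% and 4.44%. With 90 windows, the shares of the rarer motifs rest on very few matches. At 1 start and in all 8 lists the ETS motif was in 18.5% of 5807. Both strands were searched, no motif's letters hold another's although matches can overlap at their ends, neighbouring windows of a pair share bases, and a match is a run of letters, not a bound site. No test was made.

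Few of the regions missing from some list were known to be divergent. Of the 423 that some list lacked, 115 lay at 2 ends, 88 at a start and an end, 70 at divergent starts and 144 at genes of unknown strand. In 1 list alone were 105 (5.38%), against 12.4% at 1 gene end. Among regions in all 8 lists, Tcf19/Cchcr1 varied most, with 47.6, 10.1 and 94.0 in FL 1 to 3, 17.9, 58.2 and 96.2 in KO 1 to 3, and 84.8 and 79.8 in 4S-A 1 and 2. High values came from the Tie2-Cre set and low ones from the Mx1-Cre set, and the ranges of FL and KO overlap. Ntsr2/Lpin1 (Lpin1 makes diacylglycerol), at 3.2, 44.8 and 83.8, then 64.7, 72.7 and 66.0, then 77.0 and 82.7, and Nhlrc4/Pigq, at 45.1, 6.7 and 82.7, then 42.3, 61.3 and 85.7, then 86.8 and 81.4, also had their lowest value in an FL library of the Mx1-Cre set. Zcchc3, paired with a predicted gene, had 6.0, 42.6 and 17.5 in FL, 54.6, 58.8 and 4.7 in KO and 83.7 and 74.7 in 4S-A. All 4 libraries of the Tie2-Cre set and none of the Mx1-Cre set held 43 paired regions (2.202%, against 7.71% of all regions), and list length moves with the set.

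The study compared KO with FL to see how loss of DEK changes open chromatin. The strength difference between paired and single gene ends averaged 9.32 ± 0.94 in FL and 9.42 ± 0.32 in KO (SD, n = 3 each), a difference of 0.09 percentile points that was within the spread between libraries (exact two-sided permutation test, p = 0.9, adjusted p = 0.9, smallest possible 0.1). It was 0.52 inside the Mx1-Cre set and −0.75 between KO 3 and FL 3, and 4S-A averaged 9.91. KO libraries held 87.6% ± 5.04 of the paired regions and FL libraries 86.2% ± 5.17 (difference 1.45 points, exact permutation p = 0.8, adjusted p = 0.9), and 4S-A held 92.8%. The gap in presence between paired and single gene ends was 14.2 ± 3.09 points in FL and 13.0 ± 2.28 in KO (difference −1.11, exact permutation p = 0.8, adjusted p = 0.9). With 3 libraries against 3 no difference could reach 0.05.

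A region counted as lost when all control libraries had a peak there and the compared libraries had none, and as gained in the reverse case. From FL to KO, 1 of 1565 paired regions was lost, or 0.0639%, where 0.214% of all regions were, and 2 of 1593 were gained, or 0.126%, where 0.754% of all were. All regions weighted to the strength of the paired ones gave 0.0372% lost and 0.162% gained. None of 813 divergent regions was lost (a count of 0 allows up to 0.369%, or 0.453% by the exact interval). None of 815 was gained (0.368%, or 0.452% by the exact interval). The lost one, Nradd/Nbeal2 (Nbeal2 is needed for platelet granules), lay at chr9:110624299-110625204, 621 bp from the start of Nradd and 225 bp from the end of Nbeal2. It had percentiles of 25.8, 16.0 and 44.5 in FL and of 65.1 and 63.9 in 4S-A, and KO lists lacked it. Gained were Vsig2/Nrgn (Nrgn is the calmodulin-binding neurogranin), chr9:37544457-37545139, with 27.3, 17.8 and 54.3 in the KO libraries against 56.8 and 37.9 with 4S-A, and Atg9b/Nos3 (autophagy and endothelial nitric oxide synthase), chr5:24384469-24384815, with 32.3, 53.5 and 23.6 in KO and no 4S-A peak. Leaving out a library drops a condition of the rule, so these counts tend to rise by construction. The gained count is 21 without FL 3 and 4 without KO 1 or KO 2. The lost count is 6 without KO 3, 3 without FL 3 and 2 without FL 1 or FL 2. Shares of all regions were not computed with a library left out.

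Inside the Mx1-Cre set, 8 of 1571 were lost (0.509%, against 2.07% of all regions) and 24 of 1599 gained (1.501%, against 13.5% of all). At the strength of the paired regions, all regions gave 0.491% and 2.86%. KO 1 and KO 2 have longer lists than FL 1 and FL 2, and gains outnumber losses among paired and among all regions. Leaving out a library again eases the rule. The lost count is then 24 without FL 1 or FL 2 and 33 without KO 2, and the gained count is 51 without FL 2 and 78 without KO 1. Shares of all regions were not computed for this eased rule. Of the 24 gained, 7 lay at 2 ends and 3 at divergent starts, and 1 of the 8 lost was divergent. Hoxa5/Hoxa6, homeobox genes, was the strongest lost region. Its summit, in chr6:52204079-52204805, lay 53 bp from the start of Hoxa5 and 324 bp from the end of Hoxa6. It had 72.3, 79.0 and 84.8 in FL and 43.2 in KO 3, with no peak in KO 1, KO 2 or either 4S-A library. H2az1/Dnajb14 and Plekhg5/Tnfrsf25 lacked a peak in KO 1 and KO 2 but had 64.8 and 34.3 in KO 3, against 39.9 and 57.8 in FL 3. Among those gained, Duoxa2/Duoxa1, maturation factors of the dual oxidases, had 69.8 and 68.9 in KO 1 and KO 2 and also 73.0 in FL 3. Likewise Osbpl9/Nrd1, Prpf40b/Fmnl3, Psme3/Aoc2, Tnfsf13/Tnfsf12 (the cytokines APRIL and TWEAK) and Rasal1/Dtx1 all had a peak in FL 3, so none of these 6 was gained across all libraries.

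In the Tie2-Cre set there was 1 control library. From FL 3 to KO 3, 44 of 1799 paired regions were lost (2.45%, against 14.4% of all) and 54 of 1809 gained (2.99%, against 15.3%). From FL 3 to both 4S-A libraries, 35 of 1799 were lost (1.95%, against 11.7%) and 39 of 1769 gained (2.205%, against 16.4%). At the strength of the paired regions, all regions gave 3.21% lost and 3.61% gained with KO 3, and 2.59% lost and 5.15% gained with 4S-A. Under the rule eased by leaving out a library, shares of all regions were not computed. Lost and gained counts are 62 and 67 without 4S-A 1, and the gained count is 73 without 4S-A 2. These comparisons share FL 3. The strongest losses with 4S-A were Hoxa5/Hoxa6 and Slc34a3/Rnf224 (a phosphate transporter and its neighbour), which had 51.0, 52.3 and 52.6 in FL and 69.9, 61.2 and 45.0 in KO, and 4S-A lists lacked it. Arhgap30/Usf1 (49.0) and Shisa5/Trex1 (37.2) were in FL 3 and in no other library. Gained were Mfsd10/Nop14, chr5:34637589-34638026 (65.2 and 62.3), found in no FL or KO library, Hspb9/Rab5c (69.0 and 58.7), Naa35/Golm1 (73.4 and 64.6) and Orm2/Akna (53.9 and 51.2), the last 3 also in KO 3 at 46.9, 2.8 and 34.8. Rusc1/Fdps, where Fdps makes farnesyl diphosphate, had 56.3 and 45.6 in 4S-A and 45.9 and 46.1 in FL 1 and FL 2, with no peak in FL 3 or KO. Jmjd7/Pla2g4b, at 56.3 and 24.2, was in no FL or KO library.

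**Figure D5:**
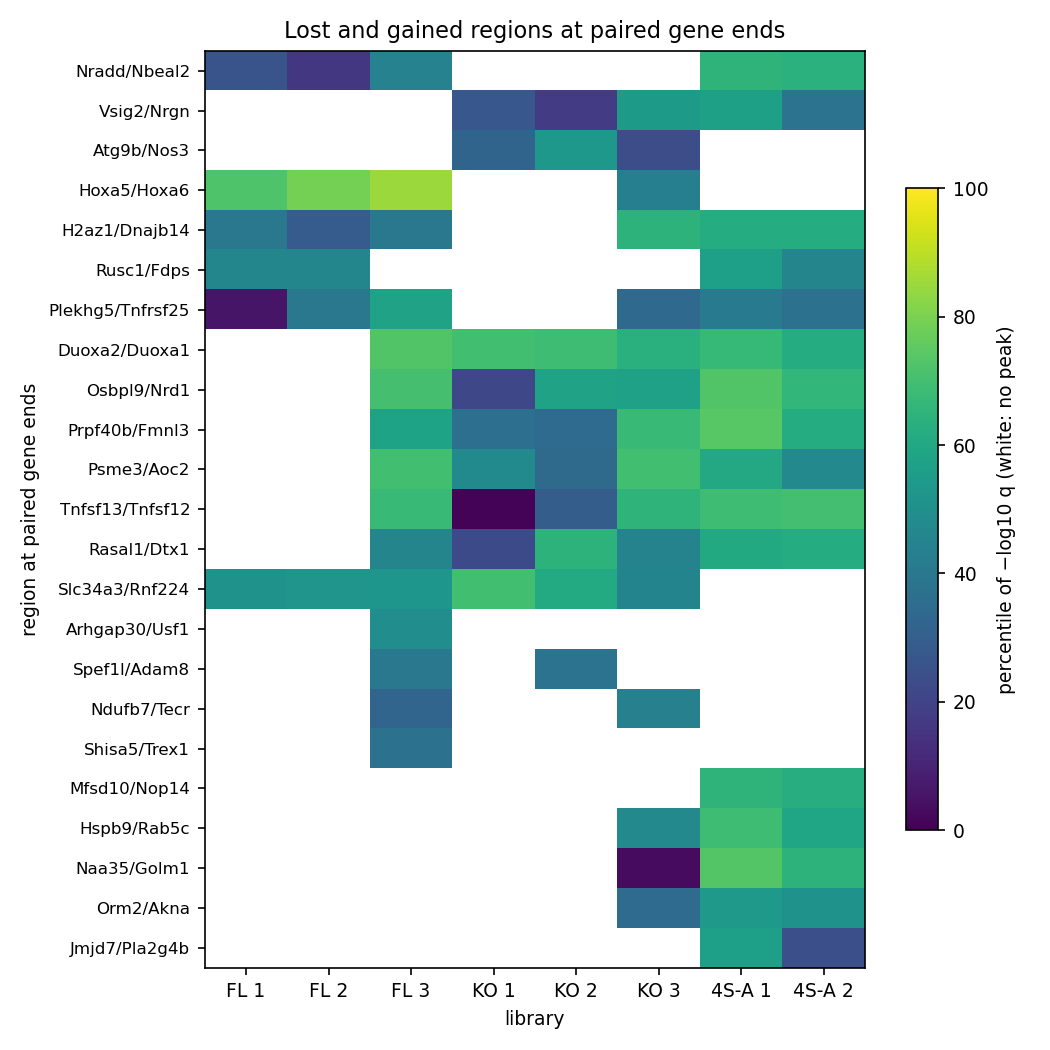
Percentile of −log10 q in each of the 8 libraries (columns) at 23 regions with paired gene ends (rows). They were among the strongest lost or gained in KO against FL, in that contrast inside the Mx1-Cre set or in 4S-A against FL 3. White means no peak, and colour runs from 0 to 100. Nradd/Nbeal2 is white in the 3 KO columns, and Mfsd10/Nop14 is coloured in the 4S-A columns alone.

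Ranks can be compared between groups where lists are equally long, so each list was cut to its strongest 51510 peaks. Of 1487 paired regions present in all 6 FL and KO lists, every KO percentile lay above every FL percentile in 32 (2.15%, where 3.09% of all regions did) and below in 38 (2.56%, where 3.76% did). The median change from FL to KO was −0.23 percentile points, against −0.21 at 1 gene end, and its median size was 1.37 points against 2.03 at 1 gene end and 3.76 over all regions. Ranks near the top have little room to change. In these lists 5 of 1528 paired regions were lost (0.327%, against 0.563% of all). Gained were 0 of 1513, where 0.706% of all were. A count of 0 allows up to 0.198%, or 0.244% by the exact interval. All regions at the strength of the paired ones gave 0.151% lost and 0.0875% gained, and the exact interval of the paired losses, 0.106 to 0.762%, includes 0.151%. Inside the Mx1-Cre set it was 20 of 1565 lost (1.28%, against 5.01% of all) and 10 of 1549 gained (0.646%, against 7.88%), so gains no longer outnumbered losses there. KO 3 lacked 36 of the 1604 that FL 3 held (2.24%, against 13.0%) and FL 3 lacked 35 of the 1603 of KO 3 (2.18%, against 12.7%). With 4S-A, 34 of 1604 were lost (2.12%, against 13.9%) and 22 of 1572 gained (1.40%, against 13.8%). At the strength of the paired regions, all regions gave 1.38% lost and 1.53% gained inside the Mx1-Cre set. Between FL 3 and KO 3 they gave 3.02% lost and 2.60% gained, and with 4S-A 3.37% and 3.52%.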

How the data were processed

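ATAC-seq peaks came from 8 libraries of sorted mouse L-GMPs, grouped by the labels' genotypes as 3 FL, 3 KO and 2 4S-A, in about 5000 cells a reaction with 13 to 16 PCR cycles per the labels' protocols. The submitters' processing notes name mm10, MACS2, featureCounts and Picard, and also Bowtie2 2.2.9 and Trim Galore 0.4.4, without role or order. Each library has its own narrowPeak list, deposited by the authors, and replicates were not pooled in the lists. The fold enrichment they deposited is a ratio over local background, and the −log10 p and −log10 q per peak were also deposited by the authors. The lowest −log10 q was 1.30 to 1.41. These values are not scaled between libraries, so they ranked peaks within a list only. Read depth is not given in the sources used here.

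Peaks outside the 19 autosomes and X were dropped, at most 0.296% of a list. Lists were merged at 1 bp overlap with Python 3.11.15, pandas 2.3.3, numpy 2.4.6 and scipy 1.17.1, and figures were drawn with matplotlib 3.10.9. Gene spans came from RefSeq GRCm38.p6, strand from its promoter table. Tests were exact sign-flip tests over 8 libraries (256 patterns) and exact permutation tests of 3 against 3, with Benjamini-Hochberg adjustment over 3 measures, and were tested on simulated data. Intervals are exact Clopper-Pearson at 95%. The limit given for a count of 0 is 3 divided by the number examined, which is below the exact upper end. Same-numbered FL and KO libraries, by title, deviated together (correlation of peak rank deviations 0.27, 0.19 and 0.52 over 34313 regions), which meets the rule for pairing by number. Inside the Mx1-Cre set, however, FL 2 with KO 1 and FL 1 with KO 2 gave 0.25 and 0.14, while pairs across Cre sets were negative, so number and Cre set cannot be told apart. Peak names inside the KO 1 and KO 2 lists carry the numbers 2 and 3, so which libraries belong together is uncertain. The paired fit changed no call.

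The members and the 15 gene lists were chosen with earlier results of these data known. Regions were named by rule: textbook pairs, the 12 strongest, the 6 strongest lost and gained per comparison, those with the highest gene numbers, the widest, the most and least even, and up to 3 per gene list, without predicted genes. Some genes that the rule or the marker list selects are not reported here. KO 3 against FL 3, all gene starts and divergent starts against 1 start were added after the data were seen. Alternatives were other gene end distances, merging rules, peak thresholds, ranks, equal-length lists and leaving out each library.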

Additional observations from a re-analysis of the deposited data

Results flagged for a closer look

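The KO minus FL change of the strength gap (paired minus single gene end, in percentile points) was 0.517857 in the Mx1-Cre set (2 libraries against 2) and −0.754945 in the Tie2-Cre set (1 against 1), so it moved in opposite directions, and the difference between the sets was not tested. The same held for the log2 width gap, at 0.0462691 and −0.00776233, also not tested. FL 3 is the only control of the Tie2-Cre set.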

How the results depend on the processing

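The paired minus single gaps in strength, width and presence stayed positive and past the threshold under every alternative run. With a gene end distance of 500 bp there were 1241 paired regions, 88.9% in all 8 lists, with 0 lost and 1 gained in KO against FL, 3 and 10 in the Mx1-Cre set and 13 and 11 with 4S-A. At 2 kb there were 3554, 63.4% in all 8 lists, with 5 lost in KO, 18 lost and 82 gained in the Mx1-Cre set and 120 lost and 125 gained with 4S-A. The union regions do not depend on this distance. Of all regions, 0.214% were lost and 0.754% gained in KO, 2.07% and 13.5% in the Mx1-Cre set and 11.7% and 16.4% with 4S-A. The paired regions that could be lost or gained were not counted at these distances, so their shares are not given. Divergent starts alone gave 92.0% in all 8 lists. In equal-length lists 84.5% were in all 8, the KO minus FL differences turned to −0.33 for the strength gap (exact permutation p = 0.3), −0.95 for the percent held (p = 0.1) and 0.70 for the held gap (p = 0.5), 5 regions were lost and 0 gained in KO, 20 lost and 10 gained in the Mx1-Cre set and 22 gained with 4S-A. By fold enrichment the difference at equal strength was 5.70 and the KO minus FL strength gap −0.19 (exact permutation p = 0.7). Inside the Tie2-Cre set the latter was −0.75 and the held gap 0.045. The cause of these changes was not tested.

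Leaving out 1 library at a time moved the KO minus FL strength gap between −0.21 and 0.72, the percent held between −1.24 and 4.61 and the held gap between −2.93 and 0.15. Turned values were −0.13, −0.21 and 0.15 without FL 1, −0.21 (strength gap) without FL 2 and −1.24 (percent held) without KO 3. With a library left out, shares of all regions lost or gained were not computed. Lost and gained counts ran from 1 to 6 and 2 to 21 in KO, 9 to 33 and 35 to 78 in the Mx1-Cre set, and 44 to 62 and 67 to 73 with 4S-A. Leaving out a library drops a condition of the rule, so these counts tend to rise by construction. With the replicate number as a block, the KO minus FL differences were 0.09 (exact p = 0.75), 1.45 (p = 0.5) and −1.11 (p = 0.5), where 3 pairs allow no p under 0.25, and no call changed. That block follows the titles, which differ from the numbers in the KO 1 and KO 2 peak names. Of the values under alternatives, 184 stayed on their side of the threshold or within the limits set for a value with no test, although some changed in size or, for the difference at equal strength (−0.38 to 1.21 apart from fold enrichment), in sign. Another 39 moved beyond those limits and 11 turned. Unknown read depth limits what a missing peak means, since a weak region can fall below the threshold in a short list.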
